A study of Mus musculus with 16 samples.

Results

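TMP195, a compound that blocks class IIa histone deacetylases (HDACs), was compared with its vehicle in tumour cells recovered from mice that carried LLC1 tumours. LLC1 is a transplantable mouse Lewis lung carcinoma line, so all tumours share 1 origin. The TMP195 group received 50 mg/kg TMP195 and the Vehicle group received DMSO, each for 16 days, with 4 libraries a group, and the comparison thus uses 8 of the 16 libraries of the series. The other 8 come from tumours treated for the same 16 days with 50 mg/kg MYCi975, an inhibitor of MYC, or with both compounds (Combo, dose of each not stated). All 16 are RNA sequencing libraries of tumour cells enriched from the tumour. The labels give neither the way of enrichment nor whether each library is a separate mouse, so the p-values below measure the spread between libraries, which may be partly technical. A gene was kept if in 4 or more of the 16 libraries it exceeded the table's lowest value by 1 log2 unit or more, as 15715 of 24334 genes did. A weakly expressed gene can thus pass through the group where it is high. Counts of higher or lower members among such genes are therefore partly set by the filter.

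Class IIa HDACs (HDAC4, HDAC5, HDAC7 and HDAC9) have little deacetylase activity of their own. They bind transcription factors of the MEF2 family and bring corepressor complexes, which hold HDAC3, to MEF2 target genes. They move between nucleus and cytoplasm on phosphorylation, and they are best known for holding MEF2-driven programmes in check in muscle, heart and vessels. TMP195 occupies their catalytic pocket and spares the class I enzymes, and it is known mainly for its action on macrophages in tumours.

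Values are variance-stabilised expression on a scale close to log2, so a difference of 1 is about a doubling for well-expressed genes and understates the change of weakly expressed ones. Levels of different genes are not compared, since the values are not per length. The value 4.84 is the lowest in every library, and the values hold no counts, so the depth of each library is unknown. Between the 8 libraries the rank correlations ran from 0.966 to 0.989, with a median of 0.976 within groups and 0.978 between them. On the first principal component of all 16 libraries (21.2% of the variance) Vehicle replicate 4 (33.2) and TMP195 replicate 4 (32.0) stood apart with MYCi975 replicate 4 (26.6), while the other 13 lay between -19.5 and 5.90. Within every group the score on this component rose with the replicate number. On the second (14.2%) TMP195 replicate 1 (28.7) and MYCi975 replicate 3 (29.1) stood apart. Values without these libraries are given where a result depends on them.

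No single gene passed the test. With limma, which fits a linear model to each gene and moderates its variance over all genes, 0.0% of the 15715 genes were called at an adjusted p under 0.05, and the smallest adjusted p was 0.139 (Cd93). At an unadjusted p under 0.05, 383 genes were higher in TMP195 (2.44%) and 384 lower (2.44%), 4.88% in all. With every library centred on its median the count split into 566 higher and 226 lower, and without the libraries numbered 4 into 393 and 391. In 173 genes (1.10%) all 4 TMP195 libraries lay above all 4 Vehicle libraries, and in 220 (1.40%) all 4 lay below. The median difference over all tested genes was -0.01, 46.3% of genes lay above 0, and 43 genes differed by more than 1 log2 unit, of which 30 were higher and 13 lower. The typical standard error (SE) of a difference was 0.157, the median over genes. As a background for counts by library, 22.1%, 18.2%, 13.6% and 21.6% of all genes lay above all 4 Vehicle libraries in TMP195 replicates 1 to 4, and 24.3%, 18.3%, 14.7% and 26.6% lay below all of them. The genes below are thus described by their values in each library and none is a called change; in what follows p means the unadjusted limma p, and values of a group are given in the order of replicates 1 to 4.

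The marker genes were looked at first. Of 11 genes listed for lung epithelium, only Ager, Hopx, Krt8 and Krt18 could be tested. The epithelial genes Epcam, Sftpb and Napsa lay below the filter and the other 4 were not analysed here, so few genes of differentiated lung epithelium could be measured in either group. Krt8 and Krt18, a keratin pair of simple epithelia, differed by -0.23 and -0.26, and neither reached a p of 0.05. Leukocyte genes were present in both groups in spite of the enrichment, and they are described with the results they move with. In such bulk libraries fewer cells of a type and less RNA per cell cannot be told apart.

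The targets of the compound came next. Of the 4 class IIa HDAC genes Hdac9 differed most. It read 6.15, 6.02, 6.05 and 6.02 in Vehicle and 6.60, 6.36, 6.38 and 6.30 in TMP195. Every TMP195 library lay above every Vehicle library, with a difference of 0.35 (SE 0.14, limma adjusted p = 0.945). The other 3 class IIa genes differed by less than their SE: Hdac4 differed by 0.08 (SE 0.13), Hdac5 by -0.01 (SE 0.16) and Hdac7 by -0.06 (SE 0.13), and their signs depended on the scaling or on single libraries. Mef2a and Mef2d, the MEF2 genes of most tissues, differed by 0.13 and 0.03, and the sign of Mef2d turned to -0.16 without the libraries numbered 4. Mef2c, which acts in the myeloid and muscle lineages, read 6.05, 6.12 and 5.80 in TMP195 replicates 1 to 3 but 7.07 in replicate 4, against 6.08 to 7.28 in Vehicle. The groups overlapped (difference -0.37, SE 0.40). Among 14 genes of the other HDACs and the NCoR corepressor complex, 5 were higher and 9 lower, the differences ran from -0.16 to 0.11, and none had a p under 0.05.

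Cd93, a C-type lectin family receptor of myeloid cells and endothelium, had the smallest p of all genes. It read 6.69, 6.59, 6.39 and 6.68 in Vehicle and 8.0, 7.57, 7.47 and 7.32 in TMP195. The 4 TMP195 libraries lay wholly above the Vehicle libraries, by 1.0 on average (SE 0.16, limma adjusted p = 0.139), and no other gene of the comparison came as close to the threshold. The 10 named genes with the smallest p on the higher side were Cd93, Cxcl3, Car9, Xylt1, Mmp8, F10, H2-Eb1, Ampd3, F13a1 and Abhd18, with differences from 0.54 to 1.45 and limma adjusted p from 0.139 to 0.904. In 8 of the 10 the groups did not overlap, but this says nothing further, since the p chose them.

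Among them several are products of myeloid cells. Cxcl3, a chemokine that draws neutrophils, read 5.90, 5.27, 5.09 and 5.77 in Vehicle and 7.59, 7.25, 6.23 and 6.74 in TMP195, a difference of 1.45 (SE 0.32). Mmp8, the neutrophil collagenase, read 5.11, 5.47, 5.46 and 5.51 in Vehicle and 6.42, 6.39, 5.75 and 5.97 in TMP195, a difference of 0.74 (SE 0.17). H2-Eb1, a beta chain of MHC class II, read 5.42, 5.33, 5.38 and 5.58 in Vehicle and 7.16, 6.24, 6.04 and 5.97 in TMP195, a difference of 0.93 (SE 0.21). All 3 genes lay near the lowest value in Vehicle, and TMP195 replicate 1 was the highest library for each. They passed the filter only with their TMP195 libraries counted.

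A pair of coagulation genes stood in the same set. F13a1, the A subunit of factor XIII that monocytes and macrophages make, read 5.82, 6.25, 5.96 and 7.11 in Vehicle and 8.06, 7.37, 6.85 and 7.69 in TMP195 (difference 1.21, SE 0.29). F10, coagulation factor X, read 5.10, 5.09, 5.54 and 5.69 in Vehicle and 6.98, 6.32, 5.61 and 6.44 in TMP195 (difference 0.99, SE 0.23). These were the 2 of the 10 whose groups overlapped, F13a1 through a high Vehicle replicate 4 and both through a low TMP195 replicate 3. 

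The remaining genes of the set are not leukocyte markers of the lists used. Ampd3, the AMP deaminase first known from red cells, read 7.85, 7.58, 7.87 and 8.34 in Vehicle and 8.68, 9.16, 9.01 and 8.87 in TMP195 (difference 1.02, SE 0.24). Xylt1, the xylosyltransferase that starts proteoglycan side chains, read 5.26, 5.41, 5.18 and 5.39 in Vehicle and 6.38, 5.88, 5.95 and 6.94 in TMP195 (difference 0.98, SE 0.22). Abhd18, of the alpha/beta hydrolase fold family, read 8.07, 8.36, 8.45 and 8.27 in Vehicle and 8.66, 8.97, 8.85 and 8.82 in TMP195 (difference 0.54, SE 0.13). TMP195 replicate 3 was not the lowest library of its group in these 3 genes, nor in Cd93 and H2-Eb1, and it was the lowest in Cxcl3, Mmp8, F10, F13a1 and Car9.

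**Figure D1:**
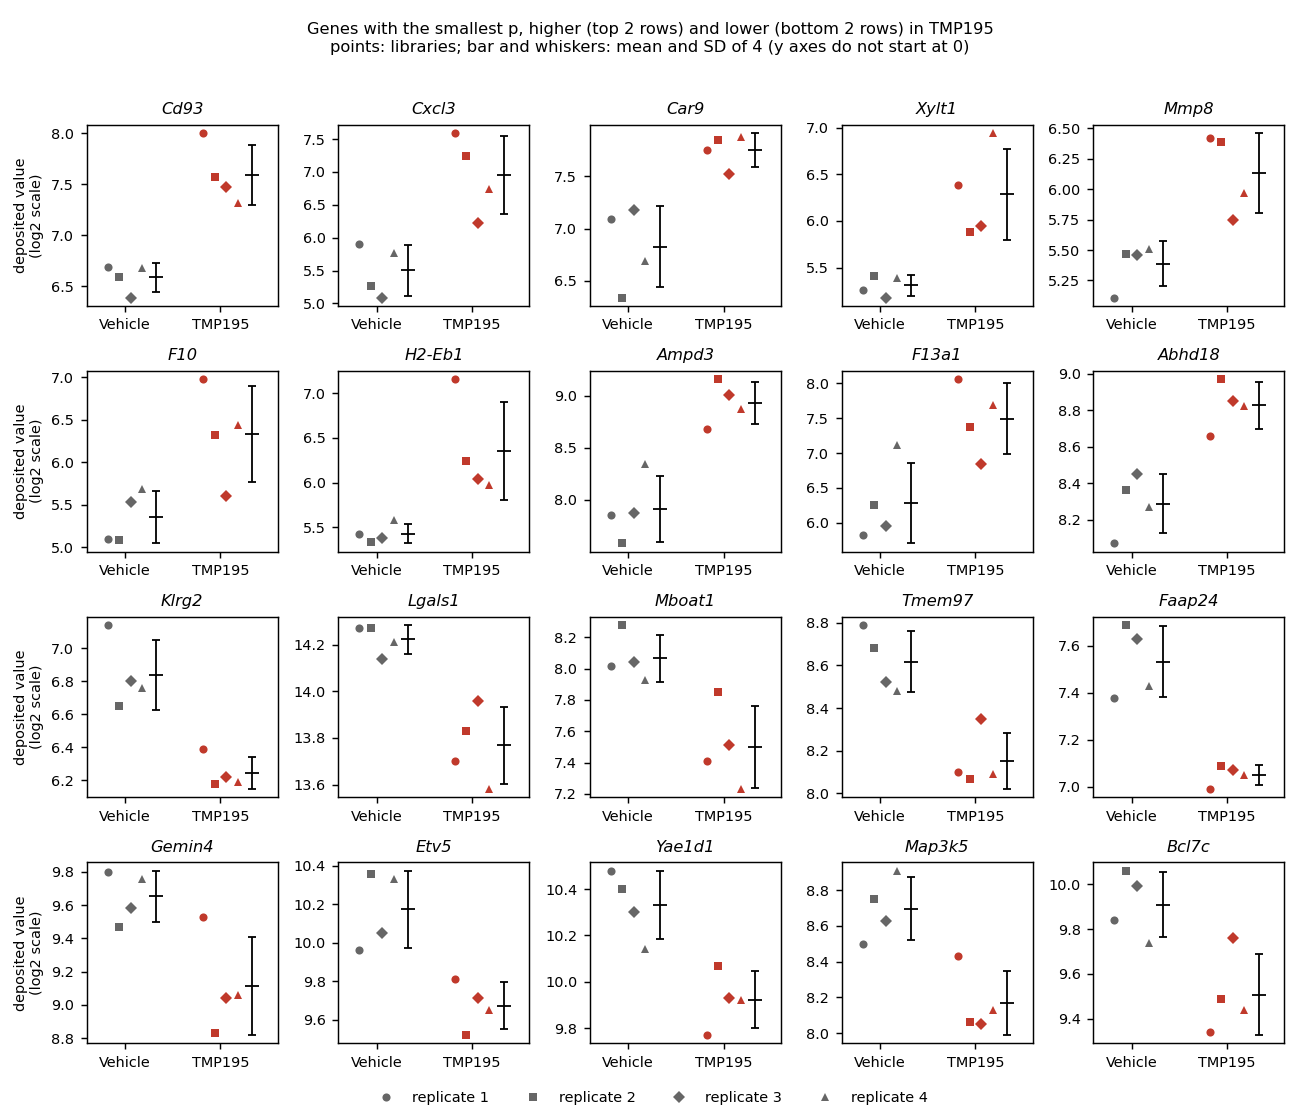
Expression (variance-stabilised, log2 scale) in each of the 4 Vehicle and 4 TMP195 libraries of the 10 named genes with the smallest p on the higher side and the 10 on the lower side; points are libraries and bars with whiskers are the mean and SD of 4 libraries. In 8 of 10 genes of each set the groups do not overlap, and Cd93 differs by 1.0.

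The 10 named genes with the smallest p on the lower side differed by less, between -0.60 and -0.40, with limma adjusted p from 0.904 to 0.945. Lgals1, which encodes galectin-1, a glycan-binding protein that tumour cells secrete, read 14.27, 14.27, 14.14 and 14.21 in Vehicle and 13.70, 13.83, 13.96 and 13.58 in TMP195. Etv5, an ETS factor induced by RAS and ERK signalling, read 9.96, 10.36, 10.05 and 10.33 in Vehicle and 9.81, 9.52, 9.71 and 9.65 in TMP195. Klrg2, a lectin-like receptor gene, read 7.14, 6.65, 6.80 and 6.76 in Vehicle and 6.39, 6.18, 6.22 and 6.19 in TMP195. The groups did not overlap in these 3 genes, whose differences were -0.45 (SE 0.11) for Lgals1, -0.50 (SE 0.14) for Etv5 and -0.60 (SE 0.14) for Klrg2.

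Others of the set act in lipid metabolism and in the care of the genome and of RNA. Mboat1, a lysophospholipid acyltransferase, differed by -0.57 (SE 0.14), and Tmem97, the sigma-2 receptor that binds the cholesterol transporter NPC1, by -0.46 (SE 0.12). Faap24, a subunit of the Fanconi anaemia core complex, read 7.38, 7.69, 7.63 and 7.43 in Vehicle and 6.99, 7.09, 7.07 and 7.05 in TMP195 (difference -0.48, SE 0.13). Gemin4, a part of the SMN complex that assembles splicing particles, differed by -0.54 (SE 0.15), with TMP195 replicate 1 (9.53) inside the Vehicle range of 9.47 to 9.80. Yae1d1 differed by -0.41 (SE 0.12), Map3k5, the stress kinase ASK1, by -0.53 (SE 0.15), and Bcl7c, a subunit of SWI/SNF chromatin remodellers, by -0.40 (SE 0.12). Bcl7c was the other gene of the set whose groups overlapped, since TMP195 replicate 3 (9.76) lay above Vehicle replicate 4 (9.74).

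Leukocyte genes were higher in TMP195 as a group, unevenly over its libraries. Of 7 tested pan-leukocyte markers 6 were higher (median difference 0.76, against -0.01 over all genes) and 5 had a p under 0.05. Of all genes 2.44% were higher and 2.44% lower at that p, which is the background for such counts in each list. Ptprc, which encodes CD45, read 6.66, 7.10, 6.39 and 7.52 in Vehicle and 8.95, 8.19, 7.30 and 7.77 in TMP195 (difference 1.13, SE 0.43, limma adjusted p = 0.945). TMP195 replicates 1, 2 and 4 exceeded every Vehicle library, and replicate 3 did not. The mean of the 7 markers was 6.60, 6.70, 6.69 and 7.05 in Vehicle and 8.30, 7.5, 6.94 and 7.03 in TMP195, so that replicates 3 and 4 lay within the Vehicle range. The list median was 0.53 without TMP195 replicate 1 and 1.05 without replicate 3.

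Markers of monocytes and macrophages held the largest single differences among the leukocyte marker lists. Of 10 tested, 9 were higher (median 0.48) and 5 had a p under 0.05. The median was 0.40 with no filter and 0.33 under a stricter one. Some weak members, such as Csf1r, passed the filter only with their TMP195 libraries counted, so the share of higher members is partly set by it. Lyz2, the lysozyme of myeloid cells, read 6.57, 6.5, 6.56 and 7.79 in Vehicle and 9.87, 8.81, 7.10 and 8.44 in TMP195 (difference 1.70, SE 0.46). Csf1r, the receptor on which macrophages depend, read 5.57, 5.39, 5.79 and 5.34 in Vehicle and 7.54, 7.07, 5.40 and 6.75 in TMP195 (difference 1.17, SE 0.30). Ccr2, the receptor that leads monocytes into tissue, read 5.61, 5.84, 5.78 and 6.38 in Vehicle and 8.04, 7.32, 5.98 and 7.32 in TMP195 (difference 1.26, SE 0.31). In Csf1r, TMP195 replicate 3 lay inside the Vehicle range while the other 3 TMP195 libraries lay about 1 log2 unit or more above it, and none of these 3 genes had groups wholly apart. Without that library Csf1r and Ccr2 were the 2 genes called in the whole comparison (limma adjusted p = 0.003 and 0.0182, differences 1.6 and 1.65). Defining genes of resident macrophages, Adgre1, C1qa, C1qb, C1qc, Fcgr1 and Ms4a7, lay below the filter, and Mertk (-0.12), Cd68 (0.01) and Cx3cr1 (0.10) differed little. 

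Neutrophil markers gave a like count, with 6 of 8 higher (median 0.58) and 3 with a p under 0.05. Beside Mmp8, Lcn2 and Csf3r had a p under 0.05. Lcn2, an iron-siderophore binding protein that epithelial tumour cells make too, read 6.95, 6.24, 6.74 and 6.94 in Vehicle and 6.99, 7.64, 7.83 and 6.94 in TMP195, so that it was high in replicates 2 and 3. Csf3r, the receptor for G-CSF, read 6.02, 5.99, 5.75 and 6.55 in Vehicle and 7.48, 6.95, 6.53 and 6.68 in TMP195 (difference 0.83, SE 0.36). S100a8 and S100a9, the calprotectin pair, were higher by 0.53 and 1.22 with no p under 0.05, and Ly6g, Ltf and Retnlg were below the filter.

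Of 11 genes of dendritic cells and MHC class II, 9 were higher (median 0.24, 0.13 without TMP195 replicate 1 and 0.09 under the stricter filter) and 4 had a p under 0.05, all of them of the MHC class II pathway. H2-Ab1 and H2-Aa were higher by 0.93 and 0.55, and Cd74, the invariant chain, by 0.82 (SE 0.38). H2-Ab1 sat at the lowest value of the table in Vehicle replicates 1 and 3, so its difference has no fixed scale. Dendritic cell genes proper differed less: Flt3 by 0.12, Xcr1 by 0.13 and Zbtb46 by -0.37. Lymphocyte markers were mostly below the filter, with 3 of 18 tested for T and NK cells and 2 of 9 for B cells. Of these only Il2rb had a p under 0.05, with a difference of 0.55 (SE 0.16). The 5 tested endothelial markers gave no common direction, with Vwf higher by 0.43 and Eng lower by 0.36, and of 9 fibroblast markers 4 were higher and 5 lower.

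Receptors and ligands of cell migration followed the leukocyte markers in part. All 7 tested chemokine receptors were higher (median 0.46, and 0.24 under the stricter filter), and 3 had a p under 0.05: Ccr2, Ccr1 (0.94, SE 0.35) and Cxcr4 (0.46, SE 0.21). Of 18 chemokine ligands only 7 were higher, but 5 of these had a p under 0.05, where 2.44% of all genes were higher at that p. Ccl6, a macrophage chemokine, read 5.84, 5.84, 5.77 and 6.62 in Vehicle and 7.71, 7.47, 6.45 and 6.98 in TMP195 (difference 1.13, SE 0.27). Ccl9 (0.77), Cxcl2 (1.07) and Ccl25 (0.34) made up the 5 with Cxcl3 and Ccl6. The interferon-induced ligands Cxcl9, Cxcl10 and Cxcl11 lay on the other side, by -0.39, -0.65 and -0.20, with no p under 0.05. The median of the ligands, -0.10, turned to 0.24 without the libraries numbered 4; TMP195 replicate 4 had 12 of the 18 below all Vehicle libraries, where 26.6% of all genes were.

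Receptors for pathogens, debris and modified lipoproteins were higher in 13 of 16 genes (median 0.46), and 6 had a p under 0.05. Msr1, scavenger receptor A of macrophages, read 5.54, 5.76, 5.98 and 6.20 in Vehicle and 8.11, 7.16, 5.86 and 6.80 in TMP195 (difference 1.11, SE 0.32). Mrc1, the mannose receptor, read 6.39, 6.49, 6.27 and 6.86 in Vehicle and 7.34, 7.24, 6.84 and 7.10 in TMP195 (difference 0.63, SE 0.18). Clec4e (1.05), Clec7a (0.86) and Cd14 (0.44) were the others beside Cd93. Under the stricter filter, which removes weakly expressed genes, the median of this list was 0.19 and that of the pan-leukocyte markers 0.42.

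Genes of phagocytosis were higher in 13 of 19 (median 0.21), with a p under 0.05 in 7. The median was 0.06 under the stricter filter and 0.11 without TMP195 replicate 1. Fcgr2b, the inhibitory Fc receptor, read 5.94, 6.01, 6.04 and 6.03 in Vehicle and 7.33, 6.95, 6.41 and 6.63 in TMP195, with no overlap (difference 0.82, SE 0.25). Fcgr3 (1.02), Fcer1g (0.59), Itgam (1.38), Sirpa (0.86) and Dock2 (0.78) are likewise genes of phagocytes. Lrp1, a large endocytic receptor that many cell types carry, read 14.57, 14.42, 14.76 and 14.60 in Vehicle and 15.35, 15.03, 14.75 and 15.49 in TMP195 (difference 0.57, SE 0.17). Here too TMP195 replicate 3 was the library that fell within the Vehicle range. 

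Cytokine genes and enzymes of myeloid cells gave 15 of 23 higher (median 0.19, 0.36 without the libraries numbered 4 and 0.11 without TMP195 replicate 2). Arg1, the arginase of macrophages in tumours, read 6.51, 6.52, 6.78 and 7.42 in Vehicle and 8.83, 7.90, 6.91 and 7.54 in TMP195 (difference 0.99, SE 0.32). Tnfrsf1b, the second TNF receptor, read 5.94, 5.99, 5.92 and 6.59 in Vehicle and 6.92, 6.83, 6.74 and 6.5 in TMP195 (difference 0.63, SE 0.20). Il10ra (0.66) and Il1rn (0.74) also had a p under 0.05. The mean of the macrophage markers in the same libraries was 6.72, 6.77, 6.74 and 7.06 in Vehicle and 7.96, 7.57, 6.90 and 7.52 in TMP195. The part that the amount of leukocyte RNA has in these gene groups was not tested.

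**Figure D2:**
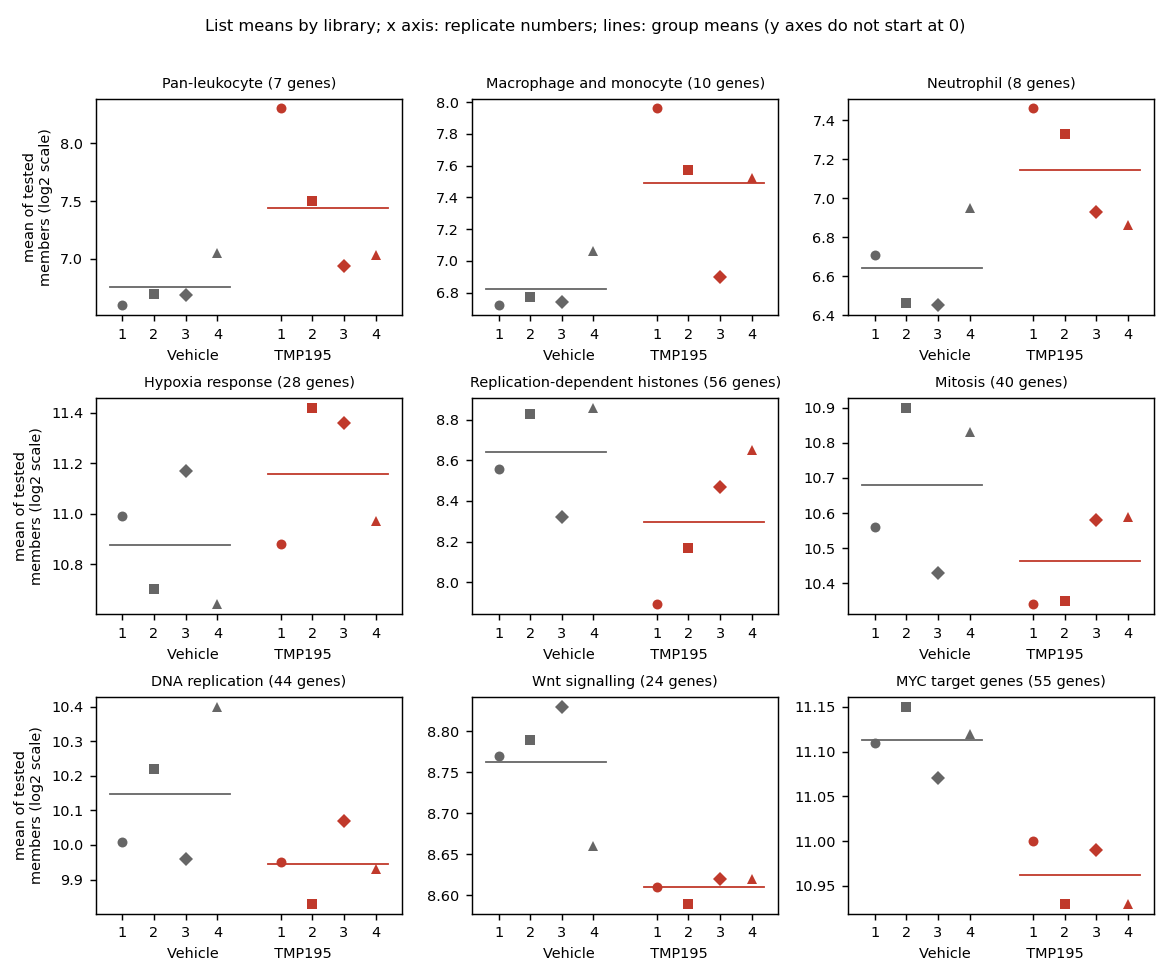
Mean expression (variance-stabilised, log2 scale) of the tested members of selected gene lists in each Vehicle and TMP195 library; points are libraries by replicate number and lines are group means. The pan-leukocyte mean is highest in TMP195 replicate 1 (8.30), the hypoxia mean in TMP195 replicates 2 (11.42) and 3 (11.36), and for MYC target genes all 4 TMP195 means lie below the 4 Vehicle means.

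Hypoxia genes were higher in 26 of 28 members, against 46.3% of all genes, with a median of 0.26. The median was 0.17 without Vehicle replicate 4, 0.36 without TMP195 replicate 1 and 0.26 without all libraries numbered 4. HIF factors switch on these genes when oxygen is low, and bind a core of ACGTG letters. Of the 28 members, 5 had a p under 0.05 and 2, Car9 and Ankrd37, had groups that did not overlap. RefSeq promoter windows (GRCm38.p6, 250 bases before to 50 after the start of the gene) were at hand for 20 of the 28, and 16 of these 20 (80.0%) held ACGTG on either strand, against 21.8% of all 27025 genes with a window. The windows of the 2 non-overlapping members are printed 5′ to 3′ on the strand of the gene, Car9 at chr4:43506776-43507075 on the plus strand and Ankrd37 at chr8:45999801-46000100 on the minus strand, with each match in capitals (CACGT is ACGTG read on the other strand):
Car9: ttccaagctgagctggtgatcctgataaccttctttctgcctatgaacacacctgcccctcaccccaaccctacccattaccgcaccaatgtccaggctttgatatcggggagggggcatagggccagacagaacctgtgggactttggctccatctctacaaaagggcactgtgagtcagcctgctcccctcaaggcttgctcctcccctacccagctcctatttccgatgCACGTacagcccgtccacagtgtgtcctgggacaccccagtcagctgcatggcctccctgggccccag
Ankrd37: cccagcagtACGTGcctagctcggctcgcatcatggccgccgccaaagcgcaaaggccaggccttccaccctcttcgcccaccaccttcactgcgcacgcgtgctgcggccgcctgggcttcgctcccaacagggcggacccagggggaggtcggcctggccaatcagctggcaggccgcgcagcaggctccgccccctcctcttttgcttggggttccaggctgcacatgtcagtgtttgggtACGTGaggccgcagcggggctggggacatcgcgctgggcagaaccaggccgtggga
The match begins at position -18 from the start of Car9, and those of Ankrd37 at positions -241 and -6. Such a match is a description of the letters and not of binding. The list was written as genes that HIF switches on, so its share of matches says nothing about TMP195.

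Car9, a membrane carbonic anhydrase used as a marker of hypoxic tumour areas, read 7.09, 6.34, 7.18 and 6.69 in Vehicle and 7.75, 7.85, 7.52 and 7.88 in TMP195. All 4 TMP195 libraries lay above the highest Vehicle library, with a difference of 0.92 (SE 0.20, limma adjusted p = 0.904). Ankrd37, a small ankyrin repeat gene, read 6.80, 6.16, 6.84 and 6.96 in Vehicle and 7.05, 6.99, 7.27 and 7.22 in TMP195, higher in each but by small steps (difference 0.44, SE 0.17). Adm, the vasodilator peptide adrenomedullin, read 10.75, 10.05, 11.05 and 9.97 in Vehicle and 10.70, 11.66, 11.59 and 10.61 in TMP195 (difference 0.69, SE 0.26). Its high values were those of replicates 2 and 3, and replicates 1 and 4 lay among the Vehicle libraries. Bnip3, which acts in mitophagy, and Ndrg1 were higher by 0.49 (SE 0.19) and 0.56 (SE 0.25). Slc2a1, the glucose transporter GLUT1, and Vegfa were higher by 0.33 and 0.20 with no p under 0.05. 

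Adm was typical of the list. TMP195 replicates 2 and 3 had 24 and 20 of the 28 members above all Vehicle libraries, and replicates 1 and 4 had 3 and 5, fewer than the share of all genes in those libraries (22.1% and 21.6%). The mean of the 28 was 10.99, 10.70, 11.17 and 10.64 in Vehicle and 10.88, 11.42, 11.36 and 10.97 in TMP195. The libraries high in hypoxia genes were thus not those high in leukocyte markers, apart from replicate 2. Glycolysis genes, many of which HIF also controls, gave 12 of 18 higher with a median of 0.04 and none with a p under 0.05.

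Genes of cell division were lower almost without exception, each by little. Of 40 mitosis genes all 40 were lower (median -0.24), against 53.7% of all genes, and 3 had a p under 0.05. Of 44 genes of DNA replication 43 were lower (median -0.19), 6 of them with a p under 0.05. The library means overlapped in both lists: the mean of the mitosis genes was 10.56, 10.90, 10.43 and 10.83 in Vehicle and 10.34, 10.35, 10.58 and 10.59 in TMP195. TMP195 replicates 1 and 2 had 24 and 26 of the 40 below all Vehicle libraries, against 24.3% and 18.3% of all genes. Replicates 3 and 4 had 5 and 9, no more than the share of all genes there (14.7% and 26.6%). Without the libraries numbered 4 the medians were -0.21 for mitosis and -0.11 for DNA replication. Without Vehicle replicate 2 that of mitosis was -0.15, and without Vehicle replicate 4 that of DNA replication was -0.12. 

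Ccne1, the cyclin that drives entry into S phase, gave the clearest case. It read 8.21, 8.39, 8.26 and 8.57 in Vehicle and 7.94, 7.87, 7.89 and 7.91 in TMP195, with no overlap and a narrow spread within TMP195 (difference -0.45, SE 0.14, limma adjusted p = 0.945). Mcm10, a replication initiation factor, read 10.17, 10.54, 10.40 and 10.98 in Vehicle and 10.07, 10.05, 10.14 and 10.18 in TMP195, where replicate 4 lay just above the lowest Vehicle library. E2f2, an activator of S phase genes, read 7.79, 7.86, 7.26 and 7.76 in Vehicle and 7.49, 6.60, 6.57 and 7.66 in TMP195. Gins2 (-0.34), Prim1 (-0.42) and Cdc6 (-0.37), parts of the machinery that starts replication, were the other 3 with a p under 0.05. Among mitosis genes Nuf2, of the kinetochore, differed by -0.35 (SE 0.16), and Aurkb and Birc5, partners in the chromosomal passenger complex, by -0.33 and -0.27.

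Replication-dependent histone genes, which are transcribed in S phase, were the list with the lowest median. Of 56 tested genes 53 were lower (median -0.36) and 10 had a p under 0.05. Hist1h2bb read 8.75, 9.03, 8.57 and 9.31 in Vehicle and 7.82, 8.18, 8.48 and 8.86 in TMP195 (difference -0.58, SE 0.19). Hist1h2bg read 9.27, 9.42, 9.05 and 9.35 in Vehicle and 8.61, 8.75, 9.02 and 9.21 in TMP195 (difference -0.38, SE 0.13). As in these genes, the list was low in TMP195 replicates 1 and 2, with 42 and 35 of 56 below all Vehicle libraries (24.3% and 18.3% of all genes). Replicates 3 and 4 had 8 and 6, below the share of all genes there (14.7% and 26.6%), and the median was -0.20 without TMP195 replicate 1. No member had groups apart. Hist2h3c1 sat at the lowest value in all 4 TMP195 libraries and in Vehicle replicate 4. Histone genes are near-identical copies among which the quantification may have split reads, so values of single members are uncertain. The part that the kind of RNA captured has in this group was not tested.

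Library means did not overlap between groups in 2 of 47 lists with 5 or more tested members, MYC target genes and Wnt signalling. The gaps were narrow: for Wnt signalling the highest TMP195 mean was 8.62 and the lowest Vehicle mean 8.66. Single genes had groups apart in 1.10% of cases on the higher side and 1.40% on the lower, so no excess is read from these 2 lists. The library means of the other HDACs and the NCoR complex met at 10.55. Of 55 tested MYC target genes 52 were lower, and 6 had a p under 0.05. Their median was -0.15 (-0.10 with every library centred on its median and -0.12 without the libraries numbered 4). The mean over the list was 11.11, 11.15, 11.07 and 11.12 in Vehicle and 11, 10.93, 10.99 and 10.93 in TMP195, so that all TMP195 libraries lay below all Vehicle libraries. In 4 members (against 1.40% of all genes) the groups did not overlap. Supv3l1, a helicase of mitochondrial RNA turnover, read 9.52, 9.58, 9.78 and 9.59 in Vehicle and 9.25, 9.45, 9.33 and 9.07 in TMP195 (difference -0.34, SE 0.12). Plk4, the kinase of centriole duplication, differed by -0.32 (SE 0.13), and Phb2, a mitochondrial prohibitin, by -0.22 (SE 0.10).

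Genes of protein synthesis and mitochondria were lower in most members as well, where 53.7% of all genes were lower. Of 77 mitochondrial ribosomal protein genes 71 were lower (median -0.13) and 6 had a p under 0.05, among them Mrpl4 (-0.39), Mrpl57 (-0.42) and Mrps2 (-0.31). Of 78 cytosolic ribosomal protein genes 64 were lower (median -0.09). Rpl10a read 12.61, 12.44, 12.44 and 12.40 in Vehicle and 12.24, 12.33, 12.04 and 12.02 in TMP195, with no overlap (difference -0.31, SE 0.10); its reads may be shared with pseudogene copies, as for the whole family. Of 42 ribosome biogenesis genes 35 were lower (median -0.08). Utp14a, which acts in maturation of the small subunit, read 10.63, 10.75, 10.61 and 10.59 in Vehicle and 10.37, 10.37, 10.38 and 10.23 in TMP195 (difference -0.31, SE 0.12). Nuclear genes of respiratory complexes II to V gave 31 of 39 lower (median -0.10), and complex I gave 26 of 36 (median -0.08). Ndufa12, a subunit of complex I, read 9.97, 10.02, 9.90 and 10.09 in Vehicle and 9.43, 9.51, 9.67 and 9.75 in TMP195 (difference -0.40, SE 0.13). Without the libraries numbered 4 the median was -0.03 for the cytosolic ribosome and for complex I, -0.06 for complexes II to V and -0.08 for the mitochondrial ribosome. For ribosome biogenesis it was -0.09. With every library centred on its median, it was -0.04 for ribosome biogenesis and for the cytosolic ribosome, and -0.03 for complex I. For complexes II to V it was then -0.05, and for the mitochondrial ribosome -0.09.

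Cholesterol synthesis, under the factor SREBP2, was lower in 22 of 24 genes (median -0.25, -0.15 without the libraries numbered 4 and -0.38 without Vehicle replicate 3). Hmgcs1, at the head of the pathway, read 12.05, 12.15, 11.48 and 12.30 in Vehicle and 11.68, 11.51, 11.68 and 11.67 in TMP195 (difference -0.36, SE 0.15). Cyp51, a sterol demethylase, read 11.88, 11.63, 11.32 and 12.03 in Vehicle and 11.18, 11.16, 11.42 and 11.36 in TMP195 (difference -0.43, SE 0.16). In both genes Vehicle replicate 3 was the low library of its group and lay within or below the TMP195 range, and no gene of the list had groups apart. Idi1, an isomerase of the pathway, also had a p under 0.05 (difference -0.33). Npc1, which moves cholesterol out of lysosomes, was higher by 0.30 (SE 0.10). In nucleotide synthesis 19 of 23 genes were lower (median -0.13, and -0.07 without Vehicle replicate 2), with Shmt2 of the mitochondrial folate cycle and Umps of the pyrimidine path each at -0.34.

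Stress genes gave mixed results. Of 14 heat shock genes 13 were lower (median -0.20). Hspa8, the constitutive HSC70 chaperone, read 16.96, 16.69, 16.95 and 16.97 in Vehicle and 16.61, 16.57, 16.53 and 16.47 in TMP195, with no overlap (difference -0.34, SE 0.12). The median of the heat shock genes was -0.36 without Vehicle replicate 2. Genes of the unfolded protein response were lower in 14 of 18 (median -0.06) and those of the integrated stress response in 18 of 27 (median -0.09). NRF2 targets were higher in 19 of 27 (median 0.08), and p53 targets in 9 of 17 (median 0.01). Bcl2, the survival factor, read 11.44, 11.53, 11.03 and 11.08 in Vehicle and 10.94, 10.71, 10.94 and 10.93 in TMP195, a difference of -0.39 (SE 0.13) with no overlap, while the BCL2 family as a whole had a median of -0.01.

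Immediate early genes, many of which SRF and MEF2 control, were lower in 18 of 27 (median -0.13). Fosl2, an AP-1 subunit, read 11.87, 11.70, 11.94 and 11.72 in Vehicle and 12.28, 12.34, 12.30 and 11.87 in TMP195, high in replicates 1 to 3 (difference 0.39, SE 0.11). Dusp2, a phosphatase of ERK, read 7.21, 7.49, 7.41 and 7.19 in Vehicle and 7.11, 7.12, 7.01 and 6.98 in TMP195 (difference -0.27, SE 0.12). Klf2, which MEF2 factors are known to induce in endothelium, read 10.47, 10.30, 11.10 and 11.18 in Vehicle and 10.46, 10.15, 10.20 and 10.51 in TMP195 (difference -0.43, SE 0.20, limma adjusted p = 0.945). The high values were those of Vehicle replicates 3 and 4, and the groups overlapped. A MEF2 motif, searched by the consensus of that name on either strand, lay in the RefSeq window of 0.636% of all genes with a window. Among the 78 named genes with a window it lay in Hdac5, Klf2, Mef2a and Plk4. Hdac5 and Mef2a were named whatever their values, so no excess is read from this count. The window of Klf2 is shown because it joins a MEF2 match to an immediate early gene, at chr8:72318812-72319111 (GRCm38.p6, plus strand), with the match, at position -118, in capitals:
Klf2: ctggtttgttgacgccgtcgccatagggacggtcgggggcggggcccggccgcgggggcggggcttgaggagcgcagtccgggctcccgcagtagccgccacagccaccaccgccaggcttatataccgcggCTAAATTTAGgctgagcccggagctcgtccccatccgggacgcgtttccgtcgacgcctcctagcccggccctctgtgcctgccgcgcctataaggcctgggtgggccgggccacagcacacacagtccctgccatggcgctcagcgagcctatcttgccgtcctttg
Of the 4 genes with a match, 1 differed by 0.13 (Mef2a), 1 by -0.01 (Hdac5) and 2 were lower by 0.43 and 0.32 (Klf2 and Plk4).

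Wnt genes were lower in 20 of 24 members (median -0.15, and -0.23 without the libraries numbered 4). The list mean lay at 8.77, 8.79, 8.83 and 8.66 in Vehicle and at 8.61, 8.59, 8.62 and 8.62 in TMP195, with no overlap, though no single member had groups apart. Wnt7b, a ligand, read 10.33, 10.55, 10.70 and 10.31 in Vehicle and 10.44, 10.04, 10.21 and 9.66 in TMP195 (difference -0.39, SE 0.15). Lef1, the transcription factor at the end of the pathway, read 5.95, 6.46, 6.21 and 5.88 in Vehicle and 6.04, 5.78, 5.38 and 5.46 in TMP195 (difference -0.46, SE 0.21). Notch and TGF-beta lists had medians of -0.06 and 0.01, with no member at a p under 0.05.

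Matrix genes split within their lists. Of 20 collagen genes 8 were higher and 12 lower (median -0.03). Col4a1, of basement membranes, read 12.60, 13.09, 12.45 and 12.46 in Vehicle and 13.56, 12.98, 12.92 and 13.15 in TMP195 (difference 0.50, SE 0.16), and Col1a2 of fibrillar collagen read 6.56, 6.39, 6.49 and 6.52 in Vehicle and 7.51, 6.80, 6.66 and 7.15 in TMP195 (difference 0.54, SE 0.20). Col1a1, however, differed the other way from Col1a2, by -0.86 (SE 0.58), and Col3a1 by 0.16, neither with a p under 0.05. Col12a1 was higher by 0.71, whereas Col17a1 and Col14a1 were lower by 0.45 and 0.53. Proteoglycan genes were 15 higher and 19 lower, and the 3 with a p under 0.05, Xylt1, Sdc3 (0.95) and Srgn (1.08), were all on the higher side. Srgn, serglycin, is the proteoglycan of leukocyte granules, and it read 7.92, 7.11, 6.35 and 7.10 in TMP195 in the order of the leukocyte markers, against 5.98, 5.93, 5.76 and 6.52 in Vehicle.

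**Figure D3:**
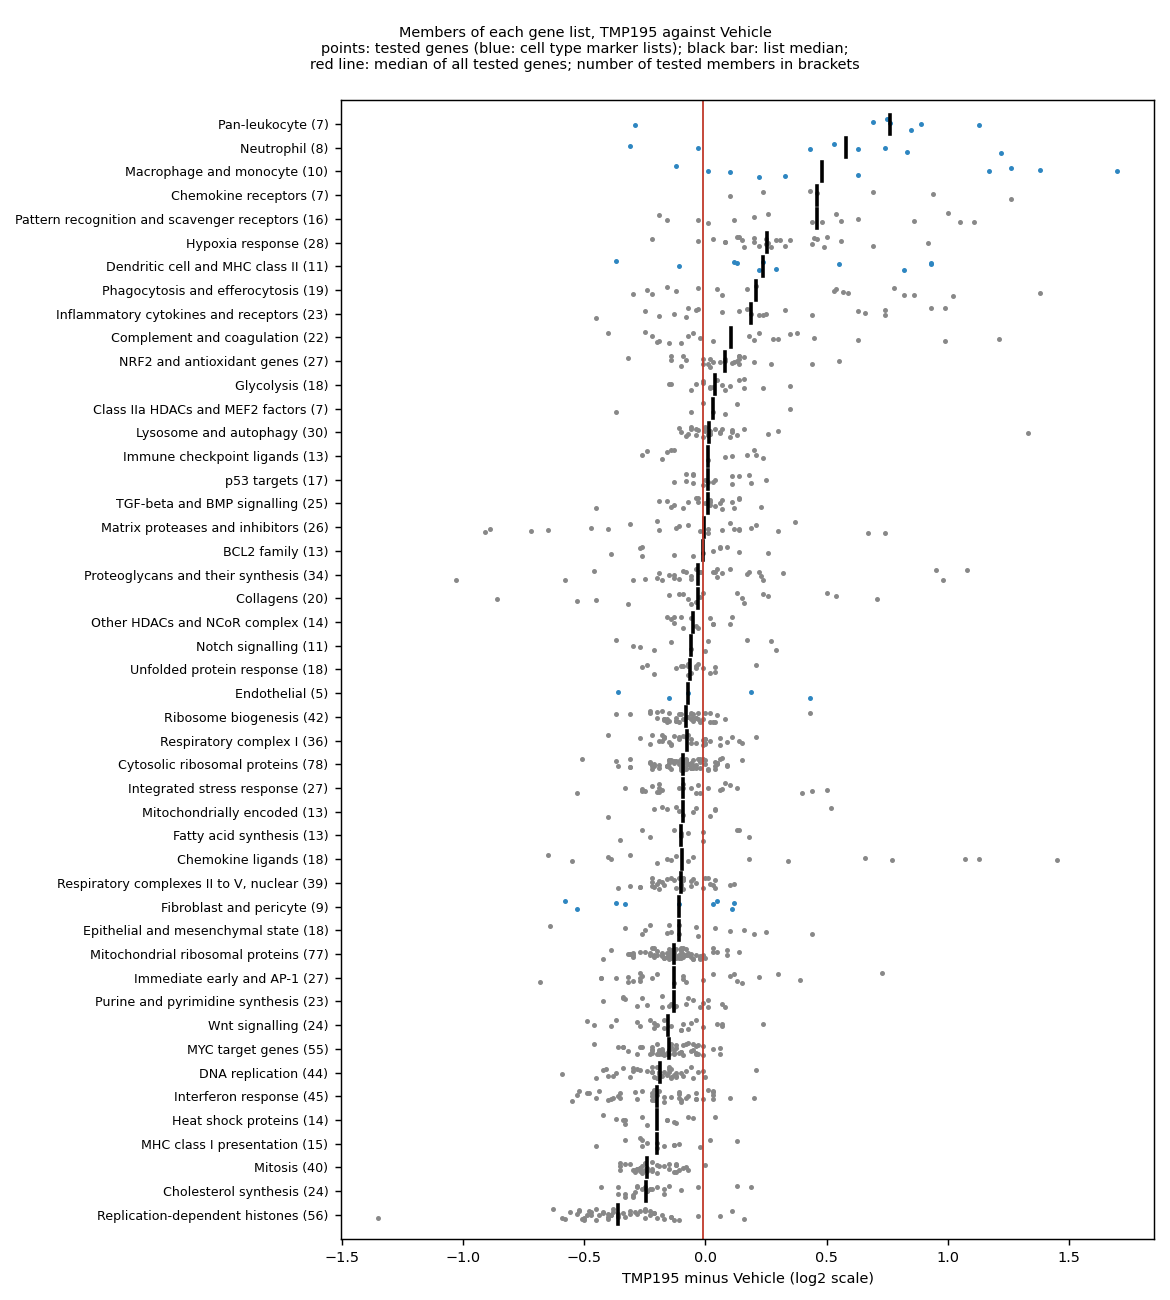
Difference TMP195 minus Vehicle (log2 scale) of every tested member of each gene list with 5 or more tested members; points are genes, blue for cell type marker lists, black bars are list medians and the red line is the median of all tested genes (-0.01). Medians run from 0.76 for pan-leukocyte markers to -0.36 for replication-dependent histones.

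Interferon response genes were lower in 38 of 45 members (median -0.20), but the direction rested on the libraries numbered 4. Without them the median was 0.12, and TMP195 replicate 4 had 21 of the 45 below all Vehicle libraries, against 26.6% of all genes. Replicates 1 to 3 had 2, 6 and 3, against 24.3%, 18.3% and 14.7%. MHC class I presentation behaved alike, with a median of -0.20 and of 0.17 without those libraries. Zbp1, a sensor of nucleic acids that triggers necroptosis, was the interferon gene with a p under 0.05 and with groups apart. It read 9.76, 9.69, 9.67 and 9.85 in Vehicle and 9.44, 9.23, 9.37 and 9.0 in TMP195 (difference -0.48, SE 0.21, limma adjusted p = 0.945). 

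The same compound was also compared in the presence of MYCi975, Combo against MYCi975, in 8 libraries that the first comparison does not use. No gene was called by limma there (0.0%, smallest adjusted p 1.0), with 365 genes at a p under 0.05 (2.32%), 180 higher and 185 lower. All 4 Combo libraries lay above all 4 MYCi975 libraries in 0.891% of genes and below them in 0.815%. In the interaction, which tests whether the TMP195 difference is another with MYCi975 than without, no gene was called either, with 471 at a p under 0.05 (3.0%, smallest adjusted p 1.0). A difference between the 2 settings is therefore not shown for any gene.

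Few of the genes at a p under 0.05 without MYCi975 were so with it. Of the 383 higher genes 207 (54.0%) were also higher in Combo than in MYCi975, as were 50.2% of all genes, and 8 (2.09%) had a p under 0.05 there. Of the 384 lower genes 234 (60.9%) were lower, as were 49.8% of all genes, and 11 (2.86%) had a p under 0.05. Of all genes 1.15% were higher and 1.18% lower there at that p, and 4 genes, 2 from each side, had a p under 0.05 in the opposite direction. Cd93 read 6.31, 6.39, 6.55 and 6.57 in MYCi975 and 6.47, 6.56, 6.26 and 6.88 in Combo, a difference of 0.09 (SE 0.16) where it had been 1.0. Car9 differed by -0.10 and Cxcl3 by -0.17, whereas F13a1 and Ampd3 were higher by 0.51 and 0.36, each with a p above 0.05. Of the 10 leading higher genes 4 were on the same side in Combo, and of the 10 leading lower genes 6, within -0.31 to 0.51 and -0.18 to 0.18.

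The genes on the same side at a p under 0.05 in both were picked out after their values were seen. Hdac9 was one of them: it was higher by 0.30 in Combo (SE 0.14) and by 0.35 without MYCi975. It read 6.07, 5.97, 5.94 and 5.82 in MYCi975 and 6.45, 5.86, 6.18 and 6.52 in Combo. The groups thus overlapped with MYCi975 through Combo replicate 2, and the gene was weakly expressed throughout. Zbp1 was lower by 0.48 in both, but with MYCi975 this rested largely on the libraries numbered 4. It read 10.19, 10.12, 9.80 and 10.88 in MYCi975 and 10.02, 10.03, 9.89 and 9.11 in Combo, and these groups overlapped. Abca1, the exporter of cholesterol to HDL, was higher by 0.64 (SE 0.22) without MYCi975 and by 0.57 (SE 0.22) with it, and Pik3r1, the regulatory subunit of PI3 kinase, by 0.39 and 0.41. Fry, Tmed7 and Dubr with the transcripts Gm47106 and AC154492.2 complete the 8 on the higher side. On the lower side, Srf, the serum response factor that controls immediate early genes, differed by -0.30 and -0.27, Cks2, a cofactor of cyclin-dependent kinases, by -0.39 and -0.38, and Cbx2 of Polycomb repressive complex 1 by -0.28 and -0.34. Hist1h2bk, Nfya, Gemin5, Ogfrl1, Tyw5, Rcl1 and the transcript Gm12161 were the others.

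Gene groups did not carry over evenly. Of the 10 macrophage markers 7 were higher in Combo than in MYCi975 (median 0.13), but of the 8 neutrophil markers none was (median -0.52) and of the 7 pan-leukocyte markers 2 (median -0.25). MYCi975 replicate 3, which stood apart on the second principal component, had the highest neutrophil mean of these 8 libraries (7.89, against 6.26 to 7.0 in the others). Hypoxia genes gave 10 of 28 higher with a median of -0.03, and Wnt genes 21 of 24 higher with a median of 0.09. Mitosis and DNA replication had medians of -0.02 and -0.05, and cholesterol synthesis of 0.04. MYC target genes were lower in 43 of 55 (median -0.10), ribosome biogenesis in 36 of 42 (median -0.13) and replication-dependent histones in 46 of 56 (median -0.17). All 45 interferon genes were lower (median -0.48), 7 with a p under 0.05; their mean was 8.87, 8.83, 9.89 and 9.36 in MYCi975 and 8.78, 8.96, 8.91 and 8.47 in Combo, with MYCi975 replicates 3 and 4 the high libraries. 

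**Figure D4:**
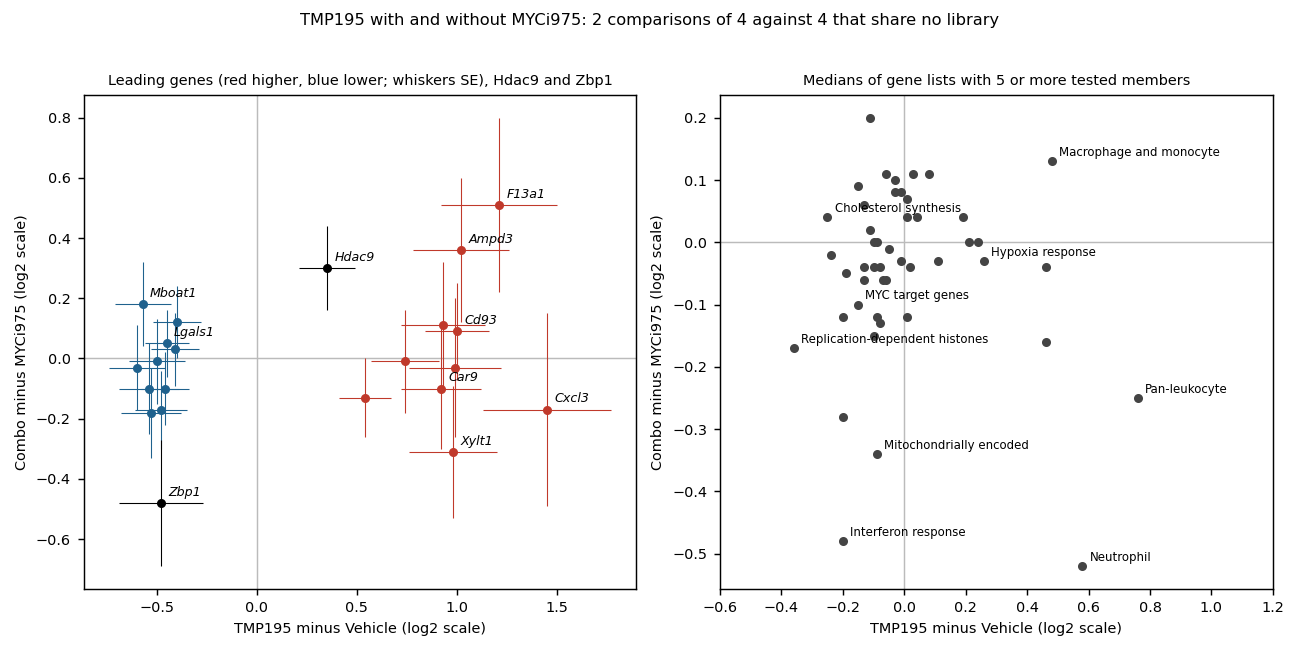
The TMP195 difference without MYCi975 (TMP195 minus Vehicle, horizontal axis, log2 scale) against that with MYCi975 (Combo minus MYCi975, vertical axis, log2 scale). Left: the 20 leading genes, Hdac9 and Zbp1, with whiskers of 1 SE; right: medians of the gene lists with 5 or more tested members. Cd93 lies at 1.0 and 0.09, Hdac9 at 0.35 and 0.30, and the interferon median at -0.20 and -0.48.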

How the data were processed

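Spin-column RNA went into a stranded total RNA library preparation, per the labels' protocols. The submitters' processing notes name Salmon, with no version, and the build hg38, although samples and identifiers are mouse. The deposited values are variance-stabilised and on a scale close to log2; the method of stabilisation is not given in the sources used here. Values hold no counts, so depth is unknown and no interval for counting error is given.

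Symbols matched 23150 of 24334 identifiers (95.1%). The 15715 genes kept were fitted with limma 3.58.1 in R 4.3.3, with 1 mean per group over all 16 libraries and an intensity trend. P-values are two-sided, adjusted by Benjamini-Hochberg over all tested genes, and a call needs an adjusted p under 0.05. The fit was tested on simulated data. Gene lists, written from general knowledge, are described by counts and medians. Members, lists and the rule for named genes were chosen with earlier results of these data known. Named are the 10 genes with the smallest p on each side, class IIa HDACs, Mef2a, Mef2c, Mef2d and Ptprc, and up to 3 members with a p under 0.05 of each list with 5 or more tested members, without predicted genes; other list members are given as examples. Alternatives were no filter, a stricter filter, moderation without trend or robust, quantile normalisation, median centring, sample weights, the 8 libraries alone, the replicate number as a block, and leaving out libraries.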

Additional observations from a re-analysis of the deposited data

Results flagged for a closer look

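Among 294 groups of 4 libraries (the named genes and the list means, in each group), 20 held a library whose gap to its nearest neighbour, as a share of the range, was above the 95% critical value of Dixon's test; chance gives about 1 in 20 groups.

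Vehicle replicate 4 was the high library of its group for the myeloid genes Lyz2 (7.79, against 6.5 to 6.57 in the other 3), Ctss (7.49, against 6.02 to 6.24), Ccl6 (6.62, against 5.77 to 5.84) and Tnfrsf1b (6.59, against 5.92 to 5.99), and for the mean of the macrophage markers (7.06, against 6.72 to 6.77). TMP195 replicate 1 was apart for Ccl9 (7.91, against 7.13 to 7.26) and the Notch mean (8.90, against 8.72 to 8.73).

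TMP195 replicate 4 was the low library for Fosl2 (11.87, against 12.28 to 12.34), Utp14a (10.23) and the means of the unfolded protein response (11.43), the BCL2 family (9.19) and the lysosome (10.73, against 10.95 to 10.98). TMP195 replicate 2 was low for Hmgcs1 (11.51) and Bcl2 (10.71), and TMP195 replicate 3 high for Tmem97 (8.35, against 8.07 to 8.10).

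In Vehicle, replicate 1 was low for Mmp8 (5.11), replicate 2 was high for Shmt2 (12.21) and low for Hspa8 (16.69), and replicate 3 was low for E2f2 (7.26) and the fatty acid synthesis mean (11.24, against 11.48 to 11.50).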

How the results depend on the processing

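The count of called genes for TMP195 against Vehicle was 0 under all alternatives except leaving out TMP195 replicate 3, which gave 2 (Csf1r and Ccr2); leaving out each library in turn gave 0 to 2. For Combo against MYCi975 that range was 0 to 1, with Gm15801 (-1.77, limma adjusted p = 0.0431) called without MYCi975 replicate 2, and for the interaction it was 0 throughout. Genes at an unadjusted p under 0.05 on the higher side numbered 383; they were 769 with no filter, 158 with the stricter filter (11597 genes tested), and 296 to 615 with 1 library left out, the most without TMP195 replicate 3. On the lower side they numbered 384, 226 with median centring, and 304 to 528 with 1 library left out. Median centring also left 146 genes with all TMP195 libraries lower, in place of 220. The causes were not tested.

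With the replicate block 0 genes were called, and 431 were higher and 560 lower at a p under 0.05. The numbers were not taken to pair the libraries, since deviations of same-numbered Vehicle and TMP195 libraries correlated at 0.22, 0.05, -0.09 and 0.39, not all of them high enough. Numbers 1 and 4 correlated best with their own number, and Vehicle replicates 2 and 3 with TMP195 replicates 3 and 2 (0.24 and 0.21). On the first principal component of all 16 libraries, 3 of the 4 libraries numbered 4 stood apart, and the scores rose with replicate number in every group. They were -13.7, -9.41, -1.45 and 33.2 in Vehicle and -19.5, -7.77, -5.03 and 32.0 in TMP195. In MYCi975 they were -16.6, -2.36, 5.9 and 26.6, and in Combo -18.4, -6.36, -2.49 and 5.32. The numbers thus carry a shared order on this component, although the main fit has no term for them. What the numbers stand for was not tested.

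Of 1765 values of the 100 named genes under the alternatives, 1749 kept their side, 2 became calls and 14 changed sign, all of genes near 0. Most named genes were chosen by a small p in this same comparison, so a kept side says little about them. The changes of sign fell on Hdac4, Hdac5, Hdac7 and Mef2d, which were named whatever their values. Hdac5 (-0.01) was 0.02 with quantile normalisation, 0.03 with median centring, 0.09 with sample weights, 0.12 without the libraries numbered 4, and 0.11, 0.00 and 0.12 without Vehicle replicate 3, TMP195 replicate 3 and TMP195 replicate 4. With 1 library left out Hdac4 ranged from -0.04 (without TMP195 replicate 4) to 0.15, Hdac7 from -0.13 to 0.01 (without TMP195 replicate 1), and Mef2d from -0.16 (without Vehicle replicate 4) to 0.14, with -0.01 without TMP195 replicate 3. With sample weights Hdac7 was 0.02 and Mef2d -0.03, and Mef2d was -0.16 without the libraries numbered 4. Of 846 medians of 47 lists, 829 moved by less than 1 SD between libraries. Among the 17 that moved more were the fibroblast markers (-0.44 without the libraries numbered 4, in place of -0.11) and complement and coagulation (-0.02 with the stricter filter, in place of 0.11). This measure does not count changes of sign. Without the libraries numbered 4 the interferon median went from -0.20 to 0.12. That of MHC class I went from -0.20 to 0.17, and that of the chemokine ligands from -0.10 to 0.24.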

Other observations

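Some gene groups not described above lay close to the median of all genes. Lysosome and autophagy genes were higher in 20 of 30 members with a median of 0.02, and the largest difference among them was that of Ctss, the cathepsin of antigen presenting cells, which read 6.13, 6.24, 6.02 and 7.49 in Vehicle and 9.55, 7.70, 6.36 and 7.59 in TMP195 (difference 1.33, SE 0.49). Immune checkpoint ligands were 7 higher and 6 lower (median 0.01, and 0.24 without the libraries numbered 4). Matrix proteases and their inhibitors were 13 higher and 13 lower, from -0.91 to 0.74, with Mmp8 alone at a p under 0.05. Genes of the mitochondrial genome were 4 higher and 9 lower (median -0.09), and their library means ran from 12.73 to 13.76 in Vehicle, with TMP195 between 12.76 and 13.65. Haemoglobin and platelet genes, of which 4 of 11 listed could be tested, were higher in all 4, by 0.19 to 0.48, none with a p under 0.05. TMP195 replicate 2 had 4 of the 4 above all Vehicle libraries and replicate 4 had 2, while replicates 1 and 3 had 0. The list mean was 6.25, 7.22, 6.26 and 6.65 in TMP195, against 5.93 to 6.55 in Vehicle.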
